A study of Arabidopsis thaliana with 12 samples.

Results

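The comparison described here sets Arabidopsis thaliana seedlings, wild type and of ecotype Columbia, raised with 0.2 µM sulfamethoxazole (SMX) against seedlings raised with no addition (control). Its members are the 6 arrays labelled for these treatments, 3 SMX and 3 control, of the 12 arrays in the series, and all 22746 probe sets that are not Affymetrix controls were compared. The other 6 arrays were seedlings given 10 mM sucrose together with 0.2 µM SMX, or 10 mM sucrose alone. Each array held total RNA of whole seedlings from a separate biological replicate. All 4 treatments shared the same growth, per the labels' protocols: seeds in liquid MS medium in 24-well plates covered with light-blocking foil, 3 days of cold at 4 °C, 6 h of light, then 3 days at 21 °C. The values are log2 expression values, so a difference of 1 is a 2-fold difference in signal. In whole seedlings, fewer cells of a type and less RNA per cell cannot be told apart.

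Folates are cofactors that carry single carbon units. Plants make them in mitochondria, where dihydropteroate synthase joins the pterin to p-aminobenzoate, and sulfonamides such as SMX compete with p-aminobenzoate at that enzyme. The carbon units are spent on purines, thymidylate and the methyl group of methionine, and through S-adenosylmethionine on methylation of DNA, lipids and lignin precursors.

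Few transcripts passed the test at this dose, and most genes were close to their control level. Of the 22746 probe sets, 19 (0.0835%) had a Benjamini-Hochberg adjusted p under 0.05 in limma, 15 of them higher (0.0659%) and 4 lower (0.0176%) with SMX. An unadjusted p under 0.05 was found for 1510 probe sets (6.64%). A probe set is called expressed below when its mean over the 6 arrays was above 5, which 12621 were. Of these, 3 (0.0238%) were among the 19, and the median of their differences was −0.02 with a median size of 0.18. In 99% of expressed probe sets the difference was smaller in size than 0.948.

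Leaving out 1 array moved the count of 19 by more than 1.5 times for 9 of the 12 arrays. It was 44, 68 and 70 without SMX replicates 1, 2 and 3, and 64 and 35 without control replicates 1 and 3. It was 12 and 9 without sucrose plus SMX replicates 1 and 3, and 11 and 12 without sucrose replicates 2 and 3. The 6 arrays correlated pairwise with Pearson's r from 0.977 to 0.991 across probe sets. The log2 difference between the 3′ and 5′ ends of the bacterial dap, lys and phe spike transcripts, a measure of labelling, was 3.57, 6.59 and 5.38 on the SMX arrays and 3.26, 4.80 and 5.86 on the control arrays. The ranges overlap, and both lie above the sucrose plus SMX (0.109 to 0.7) and sucrose (0.129 to 0.943) arrays. Few organ markers were matched, 1 of 11 listed for seed and embryo and 1 of 6 for root endodermis and cortex. For root hair 3 of 5 were matched, and of these EXPA7 and EXPA18 were not expressed. The oleosin OLEO3, the root hair cellulase GH9C1 and the root cortex protease AT1G09750 were expressed on these arrays, and their SMX and control values overlapped.

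**Figure D1:**
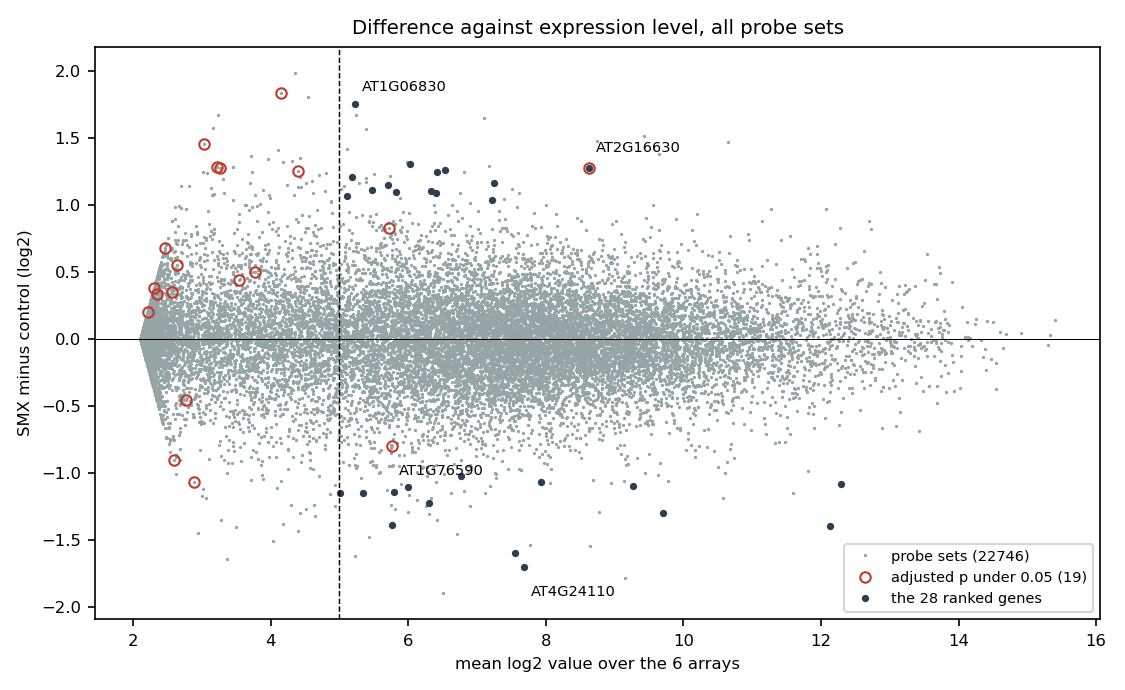
Difference between SMX and control means (log2, y axis) against the mean log2 value over the 6 arrays (x axis), 1 point per probe set. Rings mark the 19 probe sets with an adjusted p under 0.05, dark points the 28 genes ranked by size, and the dashed line the threshold of 5 for expressed probe sets. Of the rings, 3 lie right of that line, AT2G16630, AT1G76590 and a probe set paired with no gene.

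AT2G16630, a proline-rich cell wall protein known from the cuticular ledges of guard cells, was the expressed gene that rose past the test. Its log2 values were 9.06, 9.23 and 9.49 with SMX, against 7.97, 8.03 and 7.96 in the control. The groups were far apart compared with the spread within each, and the rise was 1.28 (SE 0.137, 2.43-fold; limma, Benjamini-Hochberg adjusted p = 0.0166). The same direction was seen in the sucrose-grown seedlings, on arrays not shared with this comparison: 9.85, 9.71 and 9.83 with sucrose plus SMX, against 8.54, 8.41 and 8.04 with sucrose, a rise of 1.47 (SE 0.137; limma, Benjamini-Hochberg adjusted p = 0.00611). Both adjusted p rest on 1 shared estimate of the spread, so they are not independent. The call without sucrose held in 14 of 22 alternative settings, with adjusted p from 0.0111 to 0.504, and the difference stayed between 1.16 and 1.38. It was lost without sucrose replicate 2 (adjusted p = 0.0518) or sucrose plus SMX replicates 1 (0.0516) or 3 (0.0584, limma, Benjamini-Hochberg), and in a fit of the 6 arrays compared (0.504). It was also lost when limma was fitted to probe sets with a mean above 4, 5 or 6 (adjusted p = 0.0575, 0.0891 and 0.0587), where 1, 0 and 0 probe sets were called. The remaining loss was with the replicate number as a block, given in the closing section.

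AT1G76590, a protein of the plant-specific PLATZ family of zinc-binding transcription regulators, fell. It read 5.32, 5.34 and 5.45 with SMX, against 6.20, 6.14 and 6.18 in the control, with very little spread in either group. The fall was −0.80 (SE 0.0443; limma, Benjamini-Hochberg adjusted p = 0.000925), or 1.74-fold lower. In sucrose-grown seedlings it was also lower with SMX, by −0.34 (SE 0.0443; limma, Benjamini-Hochberg adjusted p = 0.0277). Here too both adjusted p rest on 1 shared estimate of the spread. The call without sucrose held in 18 of 21 alternatives, with adjusted p from 0.000333 to 0.264, including every fit that left out 1 array. It was lost in a limma fit of the 6 arrays compared (adjusted p = 0.182) and in fits to probe sets with a mean above 4 (0.194) or above 5 (0.264).

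The rest of the called genes lay near the floor of the arrays, 2.118, where sizes are not exact. Values held at the floor vary little, which can make the SE small, so the adjusted p of these genes is uncertain too. UGT85A5, a UDP-glycosyltransferase, read 2.15 on all 3 SMX arrays, against 2.86, 3.15 and 3.15 in the control. CHR40, a chromatin remodeller of the CLASSY group in RNA-directed DNA methylation, read 2.50, 2.30 and 2.27 with SMX, against 3.33, 3.25 and 3.67 in the control. AT5G16640, a pentatricopeptide repeat protein, completed the falls at −0.46 (SE 0.0564). The rises near the floor were AT2G01300 (1.46), AT1G41750 (1.28), AT2G14860 of the Mpv17/PMP22 family (0.56), the C1-domain protein AT5G37620 (0.35), the class III peroxidase AT4G16270 (0.34) and the palmitoyl-thioesterase-like AT4G17480 (0.20). In AT4G17480 and AT4G16270 all 3 control arrays sat at the lowest value those probe sets reached on any of the 12 arrays. Leaving out 1 array ended the call for AT5G16640 and AT2G14860 in most cases (adjusted p up to 0.106 and 0.129, limma, Benjamini-Hochberg) and for AT2G01300 without sucrose plus SMX replicate 3 (0.0524). In a fit of the 6 arrays compared 0 probe sets were called, so all of these calls were lost there. Over all settings the highest adjusted p of these genes ran from 0.258 (AT5G37620) to 0.638 (AT2G14860, limma, Benjamini-Hochberg). A further 7 called probe sets are paired with no gene, and 1 of these was expressed. The remaining called probe set is paired with several genes. All of these unnamed probe sets were higher with SMX.

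Larger differences were seen among expressed genes that did not pass the test. The spread used in that test was estimated from all arrays of the series. Scatter among the sucrose and sucrose plus SMX arrays therefore also entered each SE and p, which do not follow from the SMX and control values alone. Groups did not overlap for 697 expressed probe sets higher with SMX (5.52%) and 654 lower (5.18%), and 64 of these differed by at least 1. With so few arrays a group, arrays in random order would separate in each direction for a share close to these. A lack of overlap alone is therefore weak evidence of a difference. Among the probe sets without overlap that are paired with 1 gene, the 14 largest in each direction were taken as the ranked genes. AT2G16630 passed the test, and the adjusted p of the other 27 ran from 0.115 to 0.741 (limma, Benjamini-Hochberg). The list ends between AT1G69070 (1.03) and AT5G41400 (1.02) among those higher with SMX, and between AT4G17670 (−1.02) and AT5G66780 (−1.004) among those lower.

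AT1G06830, a CC-type glutaredoxin, had the largest difference above 0. It read 5.86, 6.13 and 6.32 with SMX, against 3.82, 5.14 and 4.09 in the control, a difference of 1.75 (SE 0.387; limma, Benjamini-Hochberg adjusted p = 0.356). Every SMX array was above every control array, as the ranking required, and control replicate 2 came closest. A second member of the family, AT4G15660, was among the ranked genes with 6.84, 7.31 and 6.72 with SMX, against 5.45, 6.20 and 5.95 in the control, a difference of 1.09 (SE 0.276). AT1G66800, of the cinnamyl alcohol dehydrogenase-like reductases, read 6.98, 6.91 and 7.22 with SMX, against 5.33, 6.55 and 5.50 in the control. AT2G29290, a tropinone reductase-like dehydrogenase, differed by 1.10, and AT5G23840, a protein with an MD-2-related lipid-recognition domain, by 1.16 (SE 0.236).

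AT5G59845, of the gibberellin-regulated GASA peptide family, read 6.34, 5.99 and 5.74 with SMX, against 4.52, 4.83 and 5.38 in the control, a difference of 1.11. AT1G69070, a relative of the yeast nucleolar protein Nop14, read 7.37, 7.57 and 8.26 with SMX, against 6.89, 6.25 and 6.95 in the control. The cupin AT4G10280 (1.21), the universal stress protein relative AT3G62550 (1.07) and AT1G72240 (1.31), AT2G36145 (1.26), AT4G22640 (1.15) and AT3G23930 (1.11) made up the rest of the larger differences. AT1G72240 was nearly constant in the control, at 5.36, 5.37 and 5.37, and spread from 5.86 to 7.29 with SMX.

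AT4G24110 and AT3G10040 had the largest differences below 0, and both belong to the core set of genes that plants induce when oxygen is low. AT4G24110 read 5.99, 7.16 and 7.35 with SMX, against 8.71, 8.76 and 8.14 in the control, a difference of −1.70 (SE 0.578; limma, Benjamini-Hochberg adjusted p = 0.694). AT3G10040, which encodes HRA1, an attenuator of the low-oxygen response, read 6.67, 6.49 and 7.11 with SMX, against 8.44, 8.00 and 8.62 in the control, a difference of −1.60 (SE 0.549). AT4G10270, of a family called wound-responsive and also of the core set, read 10.90, 11.64 and 11.75 with SMX, against 12.55, 12.75 and 13.19 in the control, a difference of −1.40 (SE 0.326). The groups stand apart in each of these genes, as the ranking required, with SMX replicate 1 the lowest array for AT4G24110 and AT4G10270.

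AT2G41840, one of the genes for cytosolic ribosomal protein S2, read 12.10, 11.26 and 11.89 with SMX, against 13.01, 12.65 and 12.83 in the control, a difference of −1.08 (SE 0.213; limma, Benjamini-Hochberg adjusted p = 0.287). The 3 SMX arrays were all below the lowest control array, as the ranking required. AT5G07330 had the lowest adjusted p of the ranked genes that missed the test, 0.115 (limma, Benjamini-Hochberg), with 4.51, 4.76 and 5.01 with SMX, against 5.71, 6.12 and 5.91 in the control. A pair of WD40 repeat proteins, AT1G55680 (−1.39) and AT5G43930 (−1.14), were lower, as were the pentatricopeptide repeat protein AT1G80550 (−1.23) and the FLZ zinc-finger protein AT4G17670 (−1.02). The rest were AT1G03610 (−1.30), the glycosyltransferase UGT76E12 (−1.15), the mannose-binding lectin relative AT5G03700 (−1.11), the thaumatin relative AT1G75800 (−1.10) and AT4G18280 (−1.07).

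**Figure D2:**
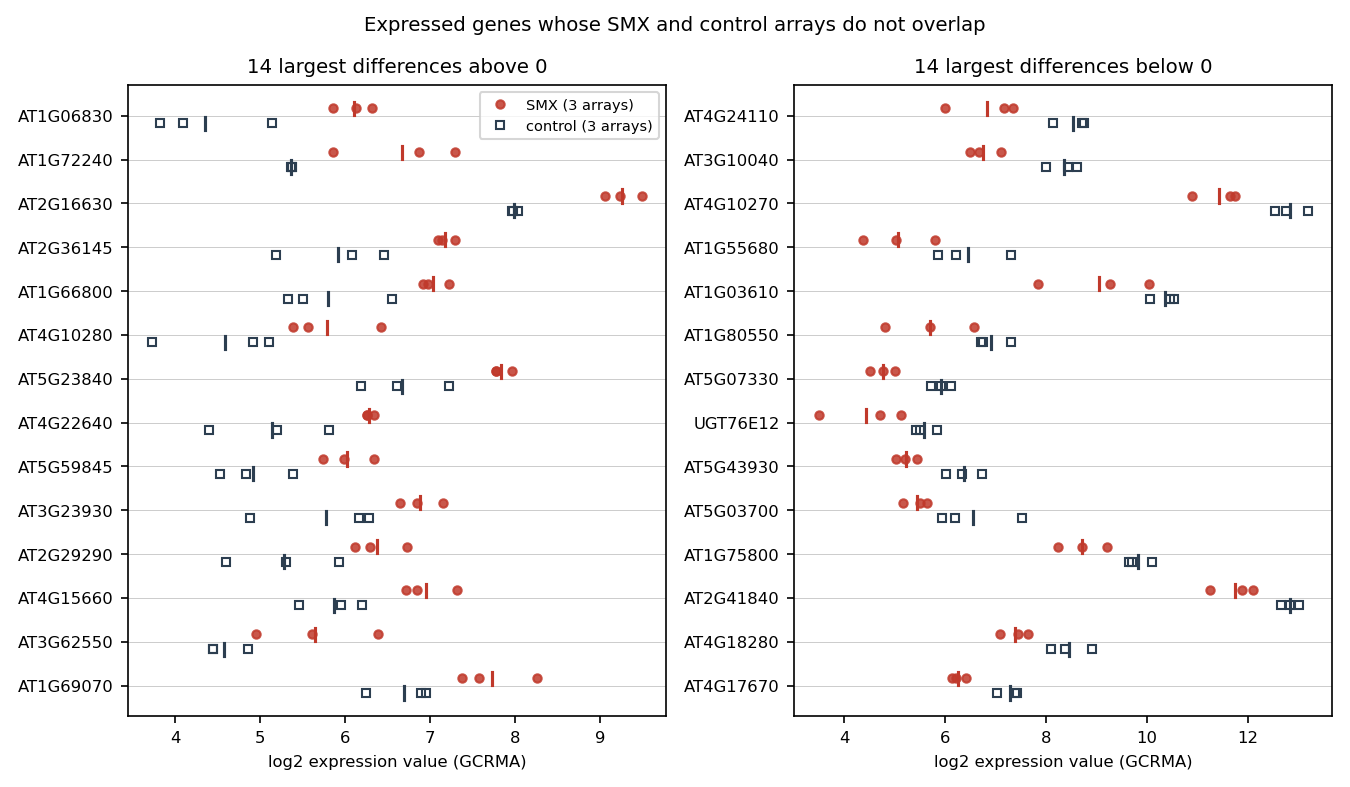
Log2 values (x axis) of the 28 ranked genes on each of the 3 SMX arrays (filled circles) and 3 control arrays (open squares), with vertical bars at the group means; the 14 genes higher with SMX are on the left and the 14 lower on the right. Within every gene the circles and squares do not overlap, since that was a condition for ranking, and the distances between means run from 1.02 to 1.75.

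The lower hypoxia genes were followed with a list of 47 core low-oxygen genes, drawn up after the values of AT4G24110 and AT3G10040 had been seen, so it has no test. Probe sets of 1 gene were found for 26, and 25 of these were lower with SMX (45% of all probe sets were). All of the 22 expressed members were lower, where 52.7% of expressed probe sets were. Their median difference was −0.72, and 6 had an unadjusted p under 0.05 (4.33% of expressed probe sets, lower), 4 had groups without overlap (5.18%), and 0 were called. AT4G24110 and AT3G10040, which prompted the list, are counted among the 4 without overlap, as is the ranked gene AT4G10270. These counts are therefore no independent support. CML38, a calmodulin-like protein of stress granules, chosen here after its values were seen, read 7.92, 8.83 and 9.05 with SMX, against 8.99, 9.66 and 10.34 in the control, so that the groups overlapped. PDC2, a pyruvate decarboxylase, and AT4G17260, a lactate dehydrogenase, the fermentation enzymes of the list, differed by −0.26 and −0.25 with overlap and were chosen in the same way.

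The size rests strongly on SMX replicate 1, in which the median member was 0.88 below its 6-array mean, while it was 0.139 below in SMX replicate 2 and 0.029 above in SMX replicate 3. In the control arrays the median member was 0.138 below, 0.495 above and 0.692 above. Without SMX replicate 1 the list median was −0.30. Without another array it ran from −0.51 to −0.92. In the sucrose-grown seedlings 19 of the 22 were higher with SMX than without it, with a median of 0.31.

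CC-type glutaredoxins, small disulfide reductases of a class found in land plants, were followed with a list of 21 genes, also drawn up after the values were seen. Of 17 matched, 8 were expressed, and all 8 were higher with SMX (47.3% of expressed probe sets were). The median was 0.63, 5 had an unadjusted p under 0.05 (3.72%) and 5 had groups without overlap (5.52%), with 0 called. The ranked genes AT1G06830 and AT4G15660 are counted among the 5 without overlap. This list too has no test, and its counts are no independent support. AT4G15700 read 8.49, 8.67 and 8.69 with SMX, against 6.80, 8.17 and 8.07 in the control. AT4G15680, outside the naming rule and chosen after its values were seen, read 8.12, 8.51 and 8.57 with SMX, against 7.73, 7.73 and 7.51 in the control, a difference of 0.74 (SE 0.161). The genes AT4G15660 to AT4G15700 are neighbours with closely similar sequences, so their probe sets may share signal.

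Over the 17 matched members, 9 of them below the threshold, the median was 0.23. In sucrose-grown seedlings 5 of the 8 expressed members were lower with SMX, with a median of −0.51. AT4G15680 then read 4.68, 4.65 and 4.50 with sucrose plus SMX, against 5.72, 5.17 and 5.31 with sucrose, and the change of its difference between the sucrose levels missed the threshold (limma interaction, Benjamini-Hochberg adjusted p = 0.0767). Median levels on the SMX arrays were 0.124, 0.397 and 0.439 above the 6-array mean, and on the control arrays 0.623, 0.0464 and 0.288 below it.

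**Figure D3:**
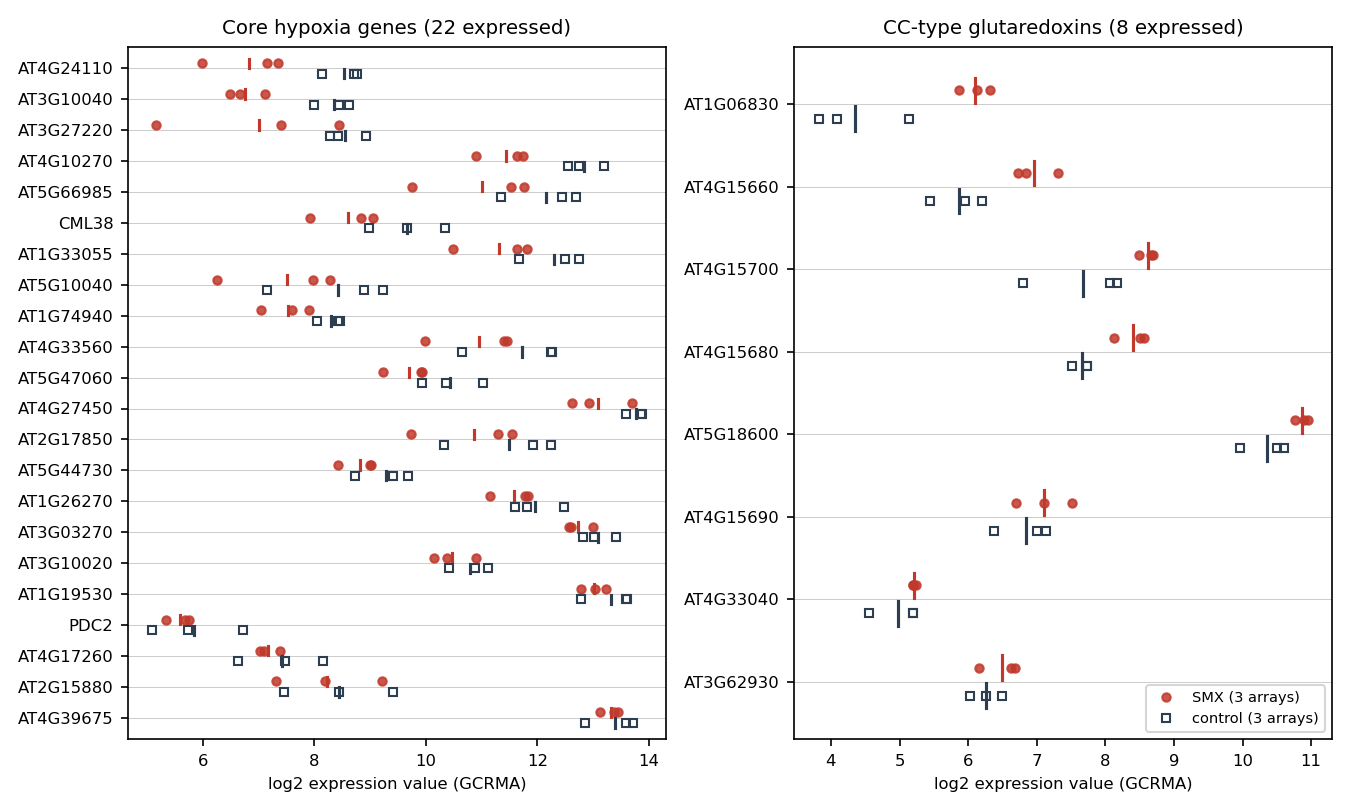
Log2 values (x axis) of the 22 expressed core hypoxia genes (left) and the 8 expressed CC-type glutaredoxins (right) on the 3 SMX arrays (filled circles) and the 3 control arrays (open squares), with bars at the group means. SMX means lie below the control means for all 22 hypoxia genes and above them for all 8 glutaredoxins, and most hypoxia genes have overlapping arrays.

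Folate synthesis genes that could be matched read close to the control level. AT4G30000, a gene of the SMX target dihydropteroate synthase, read 5.43, 5.29 and 4.85 with SMX, against 5.04, 5.20 and 5.45 in the control, a difference of −0.04 (SE 0.161). AT1G69190, the second gene of this enzyme, was at or near the floor on all 6 arrays. Of 42 genes listed for folate and one-carbon metabolism 15 were matched to a probe set of 1 gene. Of these 12 were expressed, 6 higher (47.3% of expressed probe sets were) and 6 lower (52.7%), with a median of 0.03. Without overlap, 1 was lower (5.18%), and 1 was higher with an unadjusted p under 0.05 (3.72%). In this list 0 were called, but only 0.0238% of expressed probe sets were, so that count says little. For 11 of the 12 the 95% interval of the difference lay within a 2-fold change in either direction, as it did for 77.1% of expressed probe sets.

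AT3G07270, for GTP cyclohydrolase I at the entry of pterin synthesis, read 8.29, 8.63 and 8.75 with SMX, against 9.18, 8.87 and 8.78 in the control, with SMX replicate 3 and control replicate 3 nearly level; its difference was −0.38 (SE 0.21). The dihydroneopterin aldolases FOLB1 and FOLB2 differed by 0.25 and −0.00, the aminodeoxychorismate lyase ADCL of the p-aminobenzoate branch by −0.05, and AT2G21550, of the dihydrofolate reductase family, by 0.35. Among genes that interconvert one-carbon folates, the methylenetetrahydrofolate dehydrogenases AT3G12290 and AT2G38660 differed by −0.10 and 0.14, and the formyltetrahydrofolate deformylases AT5G47435 and AT4G17360 by −0.21 and 0.08. The cyclo-ligase 5-FCL, below the threshold, differed by −0.43. The glycine cleavage genes AT1G32470, AT2G35120 and AT1G11860, which feed carbon units into folate, differed by 0.07, 0.10 and 0.08, all with overlap.

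In the methionine and methyl cycle list 4 of 20 genes were matched. All 4 were expressed and lower with SMX (52.7% of expressed probe sets were), with a median of −0.35 and 0 called. MGL, methionine gamma-lyase, which breaks methionine down, read 9.16, 9.17 and 9.05 with SMX, against 9.90, 9.97 and 9.38 in the control, a difference of −0.62 (SE 0.179; limma, Benjamini-Hochberg adjusted p = 0.564). CBL, cystathionine beta-lyase of methionine synthesis, read 9.94, 9.98 and 9.98 with SMX, against 10.09, 10.38 and 10.46 in the control, a difference of −0.34 (SE 0.112). The groups stand apart in both genes, as they did for 5.18% of expressed probe sets in this direction. The methionine methyltransferase MMT (−0.36) and the homocysteine methyltransferase HMT-1 (−0.22) overlapped. Leaving out 1 array kept the median between −0.27 and −0.42.

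Matched genes of nucleotide synthesis showed no common direction. Of 33 listed genes 10 were matched and 8 of these expressed. Of the 8, 3 were higher (47.3% of expressed probe sets were) and 5 lower (52.7%), with a median of −0.06. An unadjusted p under 0.05 was found for 2, both lower (4.33%), and 0 were called (0.0238%). PYRB, aspartate transcarbamylase of pyrimidine synthesis, read 7.68, 7.52 and 7.27 with SMX, against 8.33, 7.83 and 7.80 in the control, a difference of −0.50 (SE 0.159) without overlap. The purine enzymes that use formyl folate, AT1G31220 and AT2G35040, differed by −0.08 and 0.01. The IMP dehydrogenases AT1G16350 and AT1G79470 differed by −0.17 and 0.38, and the GMP synthase AT1G63660 by −0.03. The CTP synthases AT4G02120 and AT1G30820 differed by 0.70 and −0.53 with overlap, and AT4G20320 and AT2G34890 lay below the threshold. In a salvage and breakdown list drawn up later, UPP, uracil phosphoribosyltransferase, read 8.62, 8.91 and 8.47 with SMX, against 8.34, 8.09 and 7.83 in the control. The allantoinase ALN differed by −0.40. Both were without overlap, as were 5.52% of expressed probe sets higher and 5.18% lower.

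FDH, a formate dehydrogenase that oxidises a one-carbon acid to carbon dioxide, was picked out after its values were seen. It read 10.88, 10.30 and 10.40 with SMX, against 9.99, 10.00 and 9.40 in the control, a difference of 0.73 (SE 0.334; limma, Benjamini-Hochberg adjusted p = 0.757). With sucrose the SMX arrays were lower, 9.93, 9.65 and 9.18 with sucrose plus SMX, against 11.22, 10.04 and 10.45 with sucrose, and the interaction did not pass (limma, Benjamini-Hochberg adjusted p = 0.481).

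Most expressed genes on a list for mitosis and cytokinesis were higher with SMX, with none called. The list of 47 was drawn up after values were seen, so it has no test. Of 23 matched, 16 were expressed and 15 of these were higher (47.3% of expressed probe sets were), with a median of 0.50, 9 without overlap (5.52%), 5 with an unadjusted p under 0.05 (3.72%) and 0 called. The kinesin AT3G44050 read 7.13, 6.95 and 7.47 with SMX, against 5.85, 6.81 and 6.03 in the control, a difference of 0.95 (SE 0.291). WYR, an INCENP-like partner of Aurora kinases, read 6.32, 5.51 and 5.77 with SMX, against 4.42, 5.04 and 5.51 in the control, where SMX replicate 2 and control replicate 3 were nearly level. The Aurora kinase AUR3 read 6.74, 6.08 and 6.07 with SMX, against 5.47, 5.73 and 5.51 in the control, while its relatives AUR1 and AUR2 differed by −0.01 and 0.05 with overlap; all 3 were chosen after their values were seen. Leaving out 1 array kept the list median between 0.33 and 0.56, the lowest without control replicate 1. In the sucrose-grown seedlings 10 of the 16 were lower with SMX, with a median of −0.09.

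A shorter list for cell cycle and DNA replication, which shares AUR1 with the mitosis list, had a median near 0. Of its 21 genes 3 were matched and expressed, the Aurora kinases AUR1 and AUR2 and the replication factor PRL. The median was 0.01, with 0 without overlap (5.52% of expressed probe sets higher, 5.18% lower), and leaving out 1 array gave −0.07 to 0.19. Histones package new DNA, and 11 of 41 listed genes were matched, all of them expressed. Of these 9 were higher (47.3% of expressed probe sets were), with a median of 0.15 and 1 higher without overlap (5.52%). The median was 0.03 without control replicate 3 and 0.28 without control replicate 2, and 7 of 11 were higher without control replicate 1. HTB2, a histone H2B, read 10.27, 10.19 and 10.06 with SMX, against 9.98, 9.72 and 9.80 in the control. HIS1-3, a drought-induced linker histone chosen after its values were seen, read 5.48, 7.26 and 6.89 with SMX, against 7.04, 7.87 and 8.16 in the control, a difference of −1.15 (SE 0.489) with overlap.

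Photosynthesis genes of the nucleus were slightly higher. Of 62 listed, 11 were matched and all 11 were expressed. Of these 10 were higher (47.3% of expressed probe sets were), with a median of 0.31, 3 without overlap (5.52%) and 0 called. PSAE-1, a subunit on the stromal side of photosystem I, read 12.87, 13.10 and 13.45 with SMX, against 12.47, 12.48 and 11.99 in the control, a difference of 0.83 (SE 0.246). The antenna protein LHCB4.3 differed by 0.65 and the photosystem II subunit PSBW by 0.37, also without overlap. Without 1 array the list median was 0.18 (SMX replicate 3 left out) to 0.44.

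Plastid-encoded transcripts had a larger median with less stable support. Of 69, all expressed, 62 were higher (47.3% of expressed probe sets were) with a median of 0.50, but 4 had groups without overlap (5.52%) and 2 had an unadjusted p under 0.05 (3.72%). The median transcript of control replicate 1 was 0.883 below its 6-array mean, while those of control replicates 2 and 3 were 0.459 above and 0.246 below. On the SMX arrays it was 0.337 above, 0.027 below and 0.312 above. Without control replicate 1 the list median was 0.16, with 43 of 69 higher, and without control replicate 2 it was 0.89. The transcripts that did not overlap included rpl14 (0.54), rpoA (0.49), a subunit of the plastid RNA polymerase, and rps3 (0.33), which read 12.92, 12.96 and 13.16 with SMX, against 12.67, 12.76 and 12.61 in the control.

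**Figure D4:**
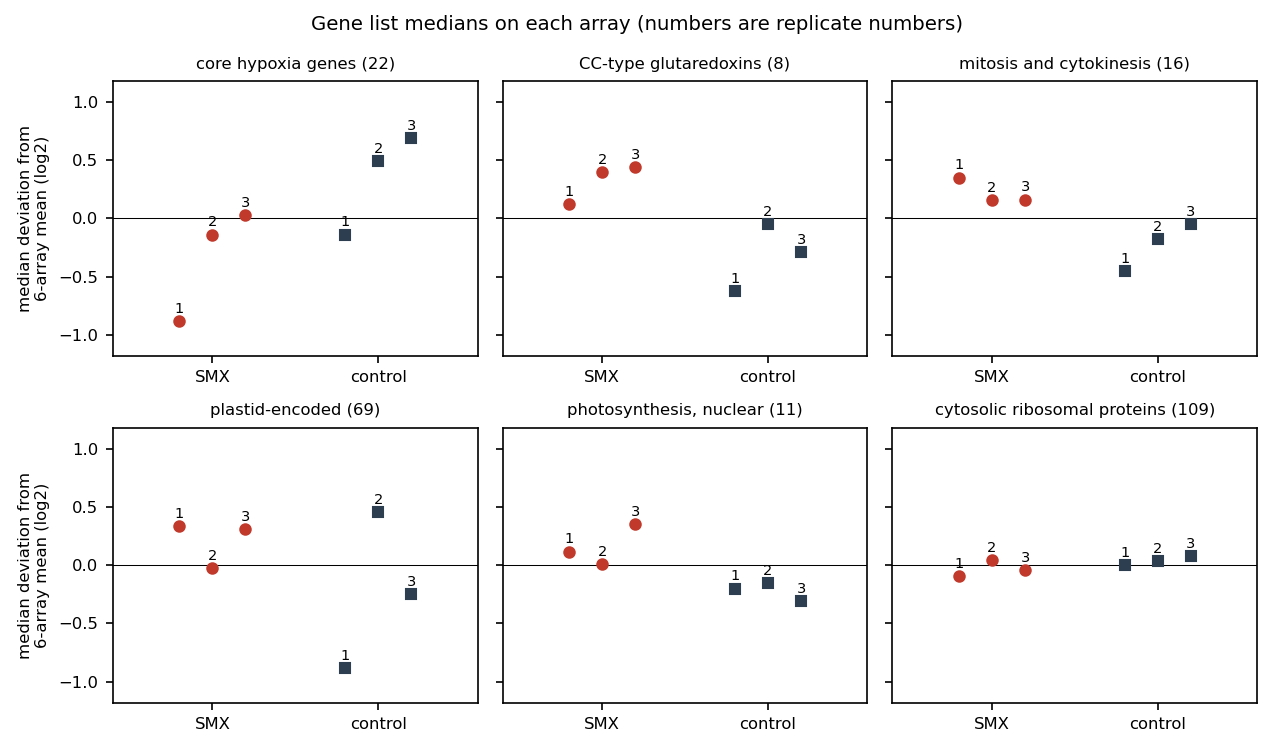
Median deviation of the expressed members of 6 gene lists from their 6-array means (log2, y axis) on each array, SMX left and control right, numbered by replicate. Glutaredoxins, mitosis genes and nuclear photosynthesis genes have all SMX arrays above all control arrays, hypoxia genes overlap through control replicate 1 and plastid-encoded genes through control replicate 2, and ribosomal proteins stay within 0.1 of 0.

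Smaller families showed single genes that stood apart. Among glutathione transferases, which attach glutathione to foreign compounds, 5 of 6 expressed members were higher, where 47.3% of expressed probe sets were, with a median of 0.33. GSTU22 (0.64), GSTU26 (0.40) and GSTU27 (0.39) were without overlap, as were 5.52% of expressed probe sets in this direction. GSTU26 read 9.30, 9.36 and 9.17 with SMX, against 8.77, 8.80 and 9.07 in the control. Among beta-glucosidases 7 of 8 were higher (median 0.32), against the same 47.3%, and 3 were without overlap (5.52%), BGLU25 (0.53), BGLU42 (0.31) and the root endoplasmic reticulum body protein PYK10 (0.13). Of 28 expressed class III peroxidases 17 were higher (47.3% of expressed probe sets), 4 of them without overlap (5.52%), and 1 was lower without overlap (5.18%). Their median of 0.10 was 0.04 without control replicate 3, 0.05 without SMX replicate 2 and 0.18 without control replicate 2. AT2G37130 of this family read 12.07, 11.95 and 12.00 with SMX, against 11.61, 11.41 and 11.22 in the control, a difference of 0.59 (SE 0.114; limma, Benjamini-Hochberg adjusted p = 0.282). The peroxidases AT4G30170 (0.39) and AT3G01190 (−0.39) stood apart in opposite directions.

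The growth expansin EXPA8, a wall-loosening protein, read 6.10, 6.02 and 5.53 with SMX, against 7.68, 6.59 and 6.25 in the control, a difference of −0.96 (SE 0.452). It was 1 of 3 expressed expansins, whose median of −0.43 was −0.07 without control replicate 1. All 6 expressed seed storage, oleosin and LEA genes were lower (52.7% of expressed probe sets were), with a median of −0.32 (−0.50 without control replicate 2), and LEA18, of the late embryogenesis abundant proteins, read 8.03, 8.03 and 8.08 with SMX, against 8.79, 8.29 and 8.55 in the control. Of 11 expressed bZIP transcription factors 9 were lower (52.7% of expressed probe sets were), 2 of them without overlap (5.18%), and 1 was higher without overlap (5.52%). Their median of −0.20 was −0.07 without control replicate 1, when 6 of 11 were lower, −0.12 and −0.08 without SMX replicates 1 and 3, and −0.44 without control replicate 3. BZIP28 and BZIP17, membrane-bound sensors of protein folding stress in the endoplasmic reticulum, differed by −0.57 (SE 0.115) and −0.50 (SE 0.181) without overlap, and the bZIP factor AT4G38900 by 0.66. BZIP28 read 7.43, 7.18 and 7.15 with SMX, against 8.00, 7.80 and 7.67 in the control. In an endoplasmic reticulum folding list drawn up later, which also holds BZIP28 and BZIP17, the chaperone genes ATERDJ3B, ATERDJ2B and CRT1b differed by −0.01, 0.27 and 0.04 with overlap, and were chosen after their values were seen. SWEET1, 1 of 4 expressed SWEET sugar transporters, differed by −0.50 and TET2, 1 of 8 expressed tetraspanins, by −0.79. Both were without overlap (5.18% of expressed probe sets, lower).

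Most expressed probe sets were held within a 2-fold change. The 95% interval of the difference lay within a 2-fold change in either direction for 9734 of 12621 expressed probe sets (77.1%), and within a log2 difference of 0.5 for 2453 (19.4%). Leaving out 1 array, so that fewer arrays enter, gave 8339 to 9681 held within 2-fold. The spread behind these intervals was estimated from all arrays of the series, including those with sucrose. Whether the 6 arrays compared would alone give wider intervals was not tested. Of 109 expressed cytosolic ribosomal proteins 103 were held within 2-fold, with a median of −0.06, 3 higher (5.52% of expressed probe sets) and 9 lower (5.18%) without overlap. After AT2G41840, AT5G48760 (−0.47) and AT3G06680 (0.43) had the largest differences without overlap, in opposite directions. All 7 expressed proteasome genes, all 6 sugar starvation genes and 21 of 22 vesicle traffic genes were held within 2-fold, with medians of −0.05, −0.04 and 0.02. The lists held 45 proteasome and 20 sugar starvation genes, of which 7 and 6 were matched. Without overlap, 1 proteasome gene was higher, 1 sugar starvation gene was lower, and 2 vesicle traffic genes were higher and 3 lower. AT3G63460, a SEC31 relative of the vesicle coat chosen after its values were seen, had the vesicle traffic difference farthest from 0, −0.77, with overlap. For autophagy genes the share held, 9 of 11, was near that of all expressed probe sets, with a median of 0.05 and 0 without overlap. The 8 expressed auxin genes had a median of 0.09, with 0 without overlap. Glycolysis had a median of −0.07, but this ran from −0.38 to 0.26 when 1 array was left out. The 5 genes with the narrowest intervals among those with a mean above 10 were AT1G47740, and the ribosomal proteins AT3G47370, AT4G27090, AT3G02560 and AT2G20450. AT1G47740 read 10.17, 10.12 and 10.09 with SMX, against 10.13, 10.11 and 10.05 in the control, with an interval from −0.07 to 0.13.

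**Figure D5:**
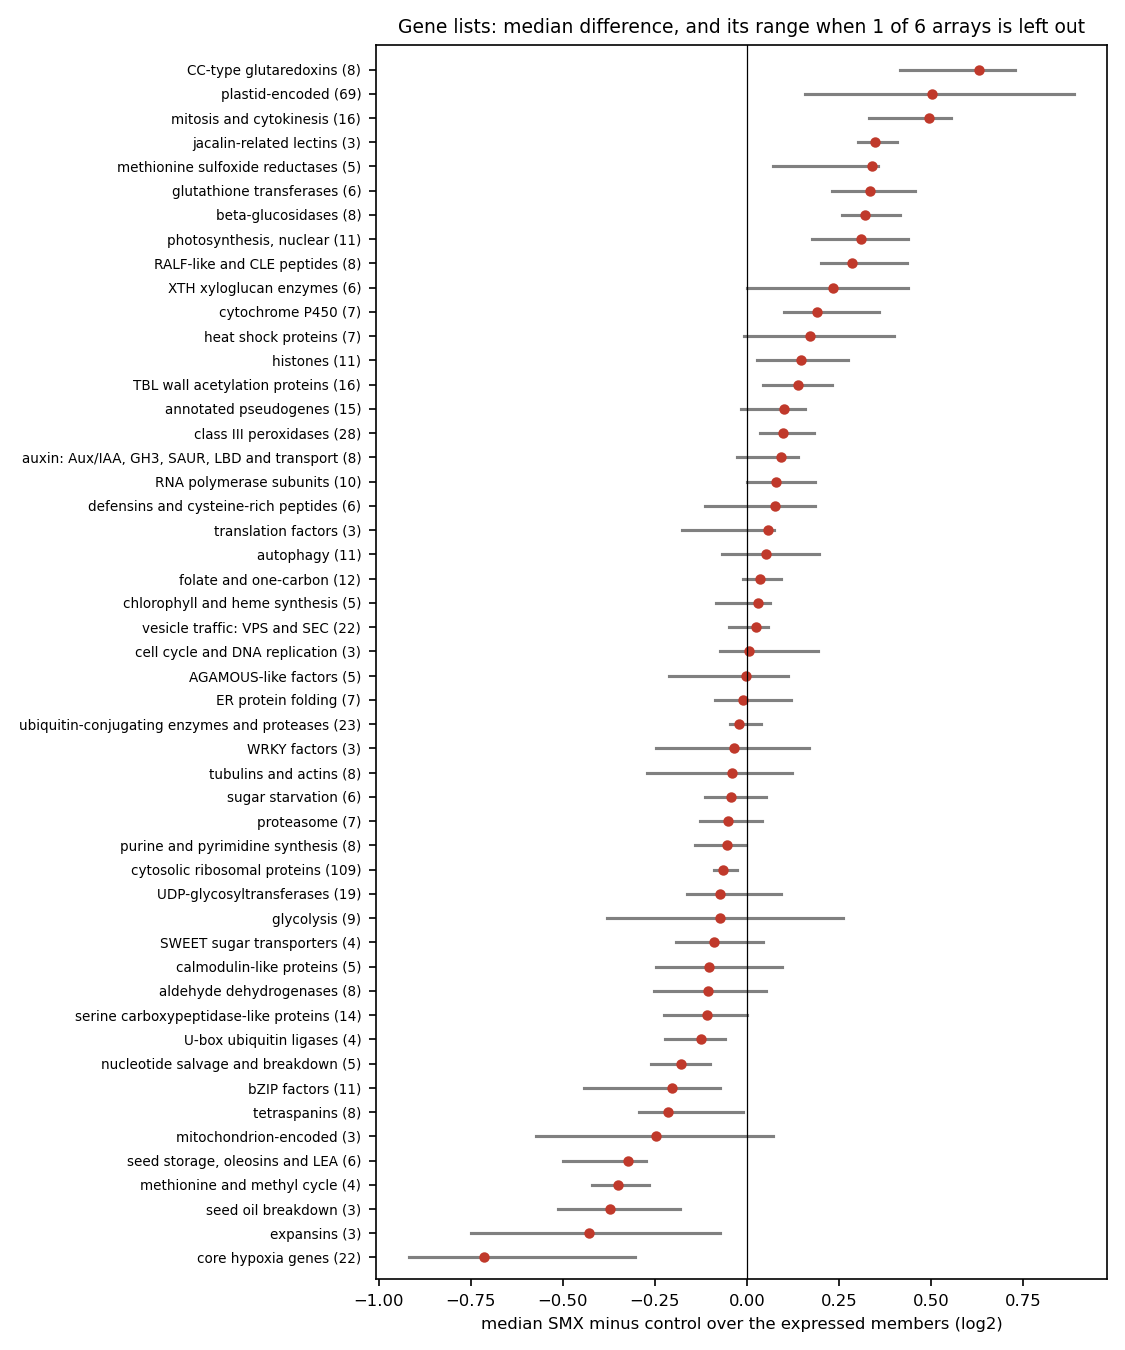
Median difference between SMX and control (log2, x axis) over the expressed members of each of the 50 gene lists with at least 3 of them, with the number of members in brackets. Points are the medians over all 6 arrays and lines the range when 1 array is left out; 32 of the 50 points lie within 0.2 of 0, and lines cross 0 for lists such as glycolysis and autophagy.

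The SMX difference was set beside the one measured in sucrose-grown seedlings, on 6 other arrays, for the genes described here. Of the 697 expressed probe sets higher without overlap, 286 (41%) were also above 0 with sucrose, where 48.1% of all expressed probe sets were. Of the 654 lower without overlap, 318 (48.6%) were also below 0 with sucrose, where 51.9% were. Over all expressed probe sets, Pearson's r between the SMX differences without and with sucrose was −0.08. Among the ranked genes 8 of the 14 higher and 3 of the 14 lower kept their direction. AT1G66800 read 6.13, 5.99 and 6.11 with sucrose plus SMX, against 7.33, 7.07 and 7.39 with sucrose, opposite to its difference without sucrose (limma interaction, Benjamini-Hochberg adjusted p = 0.109). The test of the change between sucrose levels called 16 of the 22746 probe sets (0.0703%), 1391 having an unadjusted p under 0.05 (6.12%). It called 1 with the labelling score as a covariate and 6 to 21 under the filters and scalings tried, and labelling differs between the sucrose levels as given above.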

How the data were processed

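The authors deposited a log2 level for each probe set on every array. GCRMA and limma are the tools in the submitters' processing notes, without versions or roles. The log base was read from the range, 2.118 to 15.67. Of 22810 probe sets 64 Affymetrix controls were left out; of the 22746 others, 13513 had 1 annotated gene (named through TAIR10.1), 8730 had no gene and 503 had several; the last 2 kinds stay unnamed. No build is given in the sources used here. No counts exist, so 3 arrays a group limit the precision.

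All 12 arrays entered 1 limma fit (lmFit, eBayes; limma 3.58.1, R 4.3.3) in 4 groups, checked on simulated data, with two-sided Benjamini-Hochberg adjusted p over 22746 probe sets. Genes named are the 14 largest differences each way, called genes, up to 3 members of a list without overlap, the folate, methionine and nucleotide lists, and the 5 narrowest intervals. The members and lists were chosen with earlier results of these data known, and 6 of 65 lists after their values were seen. Listed genes without a probe set of 1 gene were left out, so list results cover the matched members only. Alternatives were filters, scalings, a replicate block, a labelling covariate, a variance trend and leaving out arrays.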

Additional observations from a re-analysis of the deposited data

Results flagged for a closer look

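For 3 called genes and 2 called probe sets with no gene name, the SMX difference with sucrose minus that without had an adjusted p under 0.05 (limma's interaction test, Benjamini-Hochberg). They were already called without sucrose, and that difference is part of the interaction, so it is no independent test. The interaction called 16 probe sets in all, and 1 with the labelling score as a covariate or with the replicate number as a block. The value was −1.19 for AT1G41750 (adjusted p = 0.0397) and −0.35 for AT5G37620 (adjusted p = 0.0261), both by limma; with sucrose both genes were near the floor in each group, so the sizes are not exact. For UGT85A5 it was 0.897 (limma, adjusted p = 0.0381). This gene averaged 2.14 with sucrose plus SMX and 2.15 with sucrose, at the floor, so it could not be lower there, and the value restates its difference of −0.90 without sucrose and does not show that the response changed. The 2 probe sets that the annotation pairs with no gene had values of −0.503 and −1.08. The second, which was expressed, read 6.02, 6.13 and 6.24 with SMX, against 5.37, 5.27 and 5.27 in the control, and averaged 4.92 with sucrose plus SMX against 5.17 with sucrose.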

How the results depend on the processing

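The count of 19 called probe sets was 0 in a fit of the 6 arrays compared (1087 at an unadjusted p under 0.05) and at a mean above 5 or above 6 (972 and 829), 1 at a mean above 4, 10 among probe sets of 1 gene, 9 after median centring, and 9 to 70 without 1 array. Of expressed probe sets, 2071 to 3310 did not overlap without 1 array, when fewer arrays have to stand apart, in place of 1351. Within 0.5 in place of 1, 2453 intervals were held. The interaction count of 16 (alternatives chosen after seeing the data) was 7, 6 and 17 at a mean above 4, 5 and 6, 6 among probe sets of 1 gene, 8 after quantile normalization, 21 after median centring, 14 with a variance trend, 1 with the labelling score, and 7 to 48 without 1 array. The cause was not tested. With the replicate number as a block the called count was 5 and the interaction count 1, and AT2G16630 was not called (adjusted p = 0.124, limma). Same-numbered SMX and control arrays correlated, in deviations from their group means, at 0.18, 0.18 and 0.0546. Each SMX array correlated best with the control array of its own number, while control replicate 3 correlated best with SMX replicate 2 (0.0785). Whether replicates share an effect was not tested, and the main fit has no replicate block. Alternatives were run for 42 genes, the ranked and called ones with AT3G07270, CBL, MGL and PYRB, and not for the other named genes. None of these reversed; over them and all settings a call was lost 60 times and gained 2 times (AT1G66800 and AT5G23840 without control replicate 2, adjusted p = 0.00615 and 0.0447 by limma, where other settings gave up to 0.943 and 0.897), and list medians moved by more than the spread between replicates 23 times. The 3 arrays a group leave differences of 1 in noisy genes unresolved, and the floor hides sizes.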
